A study of Homo sapiens with 6 samples.

Results

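Ferritin and the genes that bring iron into cells, sense it and release it from storage were followed in U251 glioblastoma cells that received a STING plasmid. The set holds 9 genes, taken by name from the 42307 genes of the deposited tables, and all 9 passed the filter on low counts that left 21679 genes for testing. U251 is an established human glioblastoma line, labelled wild type. Either a STING overexpression plasmid (3 libraries) or a negative control plasmid (3 libraries) was transfected at 1 ug per well, and RNA was taken after 3 days. STING relays the signal of DNA sensors in the cytosol. The labels do not say whether the libraries of a group came from separate cultures, so the p-values measure only the spread between these libraries, which may be technical.

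Cells take up iron mainly as transferrin bound to its receptor TFRC. Inside the endosome the reductase STEAP3 converts ferric to ferrous iron, and SLC11A2 moves it into the cytosol. SLC39A14 is a second importer, for iron that is not bound to transferrin. Iron that is not used is stored in ferritin, a shell built of the heavy chain FTH1, which oxidises iron, and the light chain FTL, which helps the mineral core to form. NCOA4 is the receptor that carries ferritin to the lysosome when iron is needed. The iron regulatory proteins encoded by ACO1 and IREB2 bind a hairpin called the iron-responsive element in several of these messenger RNAs. Bound near the start of the message they block translation, as in ferritin, and bound after the coding sequence they protect the message from decay, as in TFRC. Many cancer cells, glioblastoma included, are known for a high demand for iron.

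The hairpins are shown because those before the coding sequence are known for control of translation and those after it for control of decay. Neither kind of control was measured here. Each line gives 30 bases of a GENCODE v29 transcript, written as DNA on the sense strand in GRCh38, with the loop CAGTGN in capitals.
FTH1, leader, chr11:61967573-61967602, minus strand: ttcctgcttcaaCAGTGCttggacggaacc
FTL, leader, chr19:48965335-48965364, plus strand: ctcttgcttcaaCAGTGTttggacggaaca
EPAS1, leader, chr2:46297479-46297508, plus strand: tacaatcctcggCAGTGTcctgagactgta
TFRC, trailer, chr3:196050978-196051007, minus strand: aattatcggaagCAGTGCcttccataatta
TFRC, trailer, chr3:196050574-196050603, minus strand: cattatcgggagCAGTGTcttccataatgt
TFRC, trailer, chr3:196050509-196050538, minus strand: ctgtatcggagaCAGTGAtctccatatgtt
TFRC, trailer, chr3:196050462-196050491, minus strand: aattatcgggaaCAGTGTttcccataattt
SLC11A2, trailer, chr12:50988268-50988297, minus strand: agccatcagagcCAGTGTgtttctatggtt
The search was for CNNNNNCAGTGN on the transcribed strand, with at least 4 of the 5 bases before the loop able to pair with those after it, allowing 1 unpaired base on the far side. Such a match stood in the leader (the part before the coding sequence) of 4.07% of the tested genes that have one and in the trailer (the part after it) of 11.1%. A match is therefore common and is a description of the letters only. The trailers of ACO1, IREB2 and CDC14A and the leader of SLC40A1 also held matches, which are not printed. These genes may not be all that hold a match, and a gene not named here was not shown to lack one. The FTH1 and FTL hairpins share the loop apart from its last base and carry the same 5 bases on its left side, and the TFRC trailer holds 4 matches within a short stretch.

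The deposited counts summed to between 75605739 and 76566375 in the STING libraries and between 71498790 and 76158548 in the control libraries. Levels are given in CPM, counts relative to a library size scaled by the TMM method. Relative to the unscaled library totals, 3 counts are 0.0392 to 0.042 CPM, a limit that reflects counting error alone. STING1, the gene on the plasmid, was at 52.7 ± 4.79 CPM in the STING libraries and 34.8 ± 3.15 CPM in the control libraries (SD, n = 3 each). This was a log2 fold change of 0.60, SE 0.078 (quasi-likelihood test of edgeR, Benjamini-Hochberg adjusted p = 0.00221). The 8 glioma and astrocyte markers, of which 7 were in the tables, summed to 3814 to 3960 CPM in the STING libraries and 4078 to 4229 CPM in the control libraries. All 7 had a negative estimate and 1, the astrocyte filament gene GFAP, passed (log2 fold change −0.86, edgeR adjusted p = 0.033); their part in the results below was not tested. Leukocyte, hepatocyte and endothelial markers summed to at most 10.1 CPM in any library, neuronal markers to at most 36.3 CPM and epithelial markers to at most 54.0 CPM. Erythroid markers stood apart between libraries and are given beside ferritin. A count of 1 gene cannot separate fewer expressing cells from less RNA per cell.

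With the STING plasmid 2 of the 9 genes fell, FTH1 and STEAP3, 0 rose and 7 did not pass the test. Over all tested genes edgeR called 1.49% in either direction, 0.890% lower and 0.604% higher. The other ferritin chain, FTL, had an estimate of similar size to that of FTH1 but did not pass. The estimate was negative for 7 of the 9 genes, with a median log2 fold change of −0.10, against 49.8% negative and a median of 0.00 over all tested genes. Both falls were small, to 0.844 of the control level for FTH1 and to 0.780 for STEAP3.

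**Figure D1:**
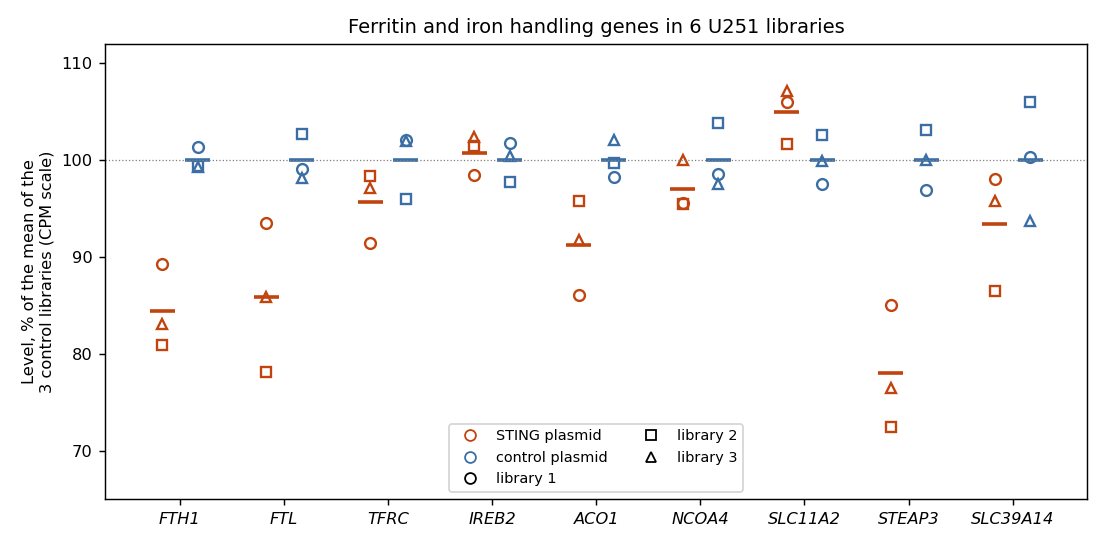
Level of each gene in each library, as a percentage of the mean of the 3 control libraries on the CPM scale; STING libraries (orange) stand left of control libraries (blue), the symbol gives the library number and the short line the mean of the group. FTH1, FTL, ACO1 and STEAP3 have all 3 STING libraries below all 3 control libraries, while the groups of the other 5 genes overlap.

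FTH1, the ferritin heavy chain (ENSG00000167996, chr11:61959718-61967634, minus strand), was counted 329179, 300437 and 303231 times in STING libraries 1, 2 and 3, against 357593, 338241 and 360063 times in control libraries 1, 2 and 3. Scaled to library size these were 4283, 3884 and 3989 CPM in the STING libraries and 4863, 4773 and 4765 CPM in the control libraries. The groups did not overlap, the highest STING library lay 10.1% below the lowest control library, and the STING libraries were spread more widely. FTH1 averaged 4052 ± 207 CPM in the STING libraries and 4800 ± 54.5 CPM in the control libraries (SD, n = 3 each). This is a log2 fold change of −0.24, with 0.043 as its standard error (edgeR adjusted p = 0.0103).

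FTL, the ferritin light chain (ENSG00000087086, chr19:48965309-48966879, plus strand), was at 3434, 2866 and 3151 CPM in STING libraries 1, 2 and 3, against 3638, 3771 and 3603 CPM in control libraries 1, 2 and 3. All 3 STING libraries lay below the control libraries, but STING library 1 lay only 4.70% below the lowest of them. The means were 3150 ± 284 CPM with the STING plasmid and 3671 ± 88.5 CPM with the control plasmid (SD, n = 3 each). The estimate, −0.22 on the log2 scale (SE 0.055), did not pass the test over all genes (edgeR adjusted p = 0.0677). STING library 1 was the highest and STING library 2 the lowest of the STING group for both ferritin chains. Without STING library 1 FTL passed, with a log2 fold change of −0.29 (edgeR adjusted p = 0.00645). It did not pass with any other library left out (edgeR adjusted p of 0.163 to 0.27), and its estimate was nearest to 0, at −0.16, without STING library 2.

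Both chains together gave 7716, 6750 and 7139 CPM in STING libraries 1, 2 and 3 and 8501, 8544 and 8368 CPM in control libraries 1, 2 and 3. Total ferritin transcript was thus lower in every STING library than in any control library, and the difference of the mean log2 values was −0.24. A two-sided exact permutation test gave p = 0.1, the smallest that 3 against 3 libraries allow. Ferritin took 0.775, 0.690 and 0.718% of all counts in STING libraries 1, 2 and 3, against 0.838, 0.847 and 0.830% in control libraries 1, 2 and 3. The 10 most abundant genes together took 4.75 to 5.06% in the STING libraries and 5.39 to 5.51% in the control libraries, so this share was lower as well. By count FTH1 ranked 4 in every library, and FTL ranked 9 or 10 but 11 in STING library 2. FTH1 is thus itself part of that share in every library, and FTL is part of it in all but STING library 2. The comparison is therefore not independent of ferritin.

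The balance of the ferritin chains did not differ beyond the spread between libraries. The ratio of FTH1 to FTL counts was 1.25, 1.35 and 1.27 in STING libraries 1, 2 and 3, against 1.34, 1.27 and 1.32 in control libraries 1, 2 and 3. The groups overlapped (log2 difference −0.02, two-sided exact permutation p = 0.8). Per length, FTL was the more abundant chain in every library: its deposited FPKM was 3104 to 3631 in the STING libraries and 3772 to 3946 in the control libraries, whereas FTH1 was at 1828 to 1969 FPKM in the STING libraries and 2168 to 2257 FPKM in the control libraries. FPKM is the authors' measure, which divides counts by the length of the gene model and by depth. On this scale FTL ranked 7 in every library and FTH1 ranked 10 or 11.

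FTH1 shares sequence and genome space with other gene models. BEST1, which encodes a chloride channel, lies on the plus strand of chromosome 11 from 61950063 to 61964461, and 4744 bases of its model overlap that of FTH1. BEST1 was counted 18020, 636 and 18171 times in STING libraries 1, 2 and 3, against 210, 20069 and 654 times in control libraries 1, 2 and 3. Thus 3 libraries with many BEST1 counts stand against 3 with few, and both kinds occur in both groups. How the counting treated strand is not stated in the sources used here, and reads of the overlapping models cannot be told apart. BEST1 took 5.19, 0.211 and 5.65% of the summed FTH1 and BEST1 counts in STING libraries 1, 2 and 3, against 0.0587, 5.60 and 0.181% in control libraries 1, 2 and 3.

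The sum of FTH1 and BEST1 still separated the groups, at 4517, 3892 and 4228 CPM in STING libraries 1, 2 and 3 and 4866, 5056 and 4774 CPM in control libraries 1, 2 and 3. Its log2 fold change was −0.22 (SE 0.053), and it missed the threshold narrowly (edgeR adjusted p = 0.0513). The call of FTH1 was thus lost with the sum, while its direction was kept. Processed copies of FTH1 made up little of the total: 18 pseudogene rows together held 1590 to 1960 counts in the STING libraries and 1606 to 2068 counts in the control libraries, at most 0.592% of the family. The 6 FTL pseudogene rows held at most 203 counts in any library. With these rows added the log2 differences were −0.25 for FTH1 and −0.22 for FTL, each without overlap between the groups (two-sided exact permutation p = 0.1). Which reads the authors' counting left out as matching several copies was not stated in the sources used here.

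**Figure D2:**
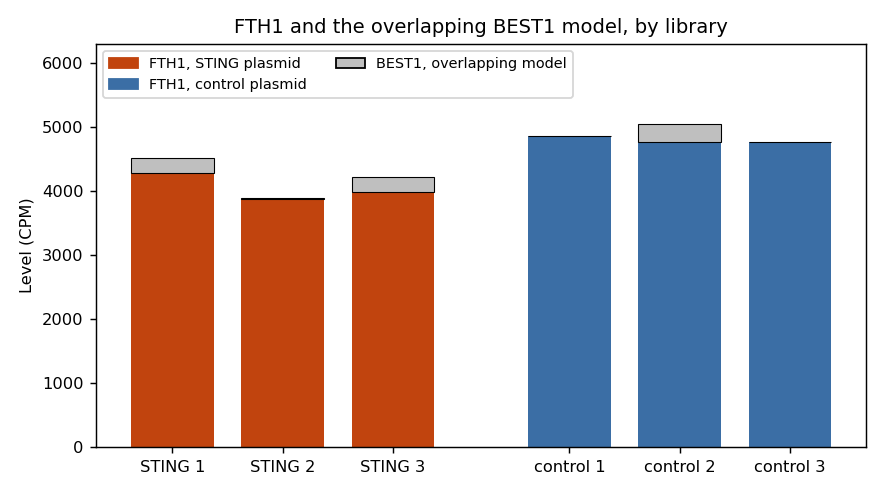
Stacked bars give the level in CPM of FTH1 (orange in STING libraries, blue in control libraries) and of the overlapping BEST1 model (grey) in each library. The summed bars stand at 3892 to 4517 CPM in the STING libraries and 4774 to 5056 CPM in the control libraries, and BEST1 adds a visible part in STING libraries 1 and 3 and control library 2.

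Transcripts of red blood cells, which carry much iron in haemoglobin, differed between libraries. HBB, the beta chain of haemoglobin, was counted 9, 2497 and 4940 times in STING libraries 1, 2 and 3, against 16, 30429 and 30209 times in control libraries 1, 2 and 3. The 3 erythroid markers in the tables (HBB, HBA1 and ALAS2) summed to 0.260 to 84.5 CPM in the STING libraries and 0.340 to 555 CPM in the control libraries. In the libraries with the lowest sums, STING library 1 and control library 1, FTH1 was at 4283 and 4863 CPM, FTL at 3434 and 3638 CPM, and STEAP3 at 41.3 and 47.1 CPM. Haemoglobin is chiefly a product of red cell precursors and counts of this size are unusual for a cultured glioma line, and their part in the differences was not tested.

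STEAP3, the endosomal iron reductase (ENSG00000115107, chr2:119223831-119265652, plus strand), showed the largest change among the 9 genes. It was counted 3178, 2727 and 2829 times in STING libraries 1, 2 and 3, against 3466, 3554 and 3676 times in control libraries 1, 2 and 3. The levels were 41.3, 35.3 and 37.2 CPM with the STING plasmid and 47.1, 50.1 and 48.6 CPM with the control plasmid. The groups were separated by 12.3% between the nearest libraries. The mean was 37.9 ± 3.11 CPM in the STING libraries and 48.6 ± 1.51 CPM in the control libraries (SD, n = 3 each). On the log2 scale the change was −0.36, SE 0.064 (edgeR adjusted p = 0.0119). The antisense model STEAP3-AS1, which overlaps it, held 6 to 33 counts per library.

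Leaving out 1 library ended the calls of FTH1 and STEAP3 in several cases. FTH1 lost its call without control library 1, 2 or 3 or STING library 3 (edgeR adjusted p of 0.0865, 0.0904, 0.0674 and 0.0514), and its log2 fold change then lay between −0.25 and −0.23. STEAP3 lost its call without the same libraries (edgeR adjusted p of 0.0575, 0.0849, 0.0577 and 0.0519) and also without STING library 2 (0.0711). The estimates moved little: over all 6 omissions they ran from −0.29 to −0.21 for FTH1 and from −0.43 to −0.31 for STEAP3. Without STING library 1 all of FTH1, FTL and STEAP3 passed. The number of all genes called was then 741, or 3.27% (2.12% lower), against 324 with all libraries.

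The libraries differed in how counts moved with base composition. STEAP3 had a GC content of 56.9%, FTL 56.3% and FTH1 50.1%, against medians of 47.9% over all tested genes and 56.3% over the genes called lower. Per 10% of GC content the level moved by 0.0316, −0.0673 and −0.0393 on the log2 scale in STING libraries 1, 2 and 3, against 0.0140, 0.0434 and 0.0175 in control libraries 1, 2 and 3. With a correction for GC content and length the log2 fold changes were −0.24 for FTH1, −0.31 for STEAP3 and −0.18 for FTL (edgeR adjusted p of 0.011, 0.0147 and 0.108). With it 0.812% of all tested genes were called lower. With the correction and the replicate number as a block the adjusted p was 0.0239 for FTH1 and 0.0647 for STEAP3 in edgeR. The part of base composition in these differences was not tested further.

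The other uptake genes did not pass the test. TFRC, the transferrin receptor (ENSG00000072274, chr3:196027183-196082096, minus strand), was at 1415, 1522 and 1502 CPM in STING libraries 1, 2 and 3, against 1579, 1485 and 1577 CPM in control libraries 1, 2 and 3. The groups overlapped, and the change was −0.06 on the log2 scale (SE 0.044, edgeR adjusted p = 0.569). An interval of 1.96 standard errors either side ran from −0.15 to 0.02. Within each library TFRC can be set against ferritin without any scaling, which removes library size but not differences tied to base composition. TFRC had a GC content of 41.5%, against 50.1% for FTH1 and 56.3% for FTL. The ratio of TFRC counts to the summed FTH1 and FTL counts was 0.183, 0.225 and 0.210 in STING libraries 1, 2 and 3, against 0.186, 0.174 and 0.188 in control libraries 1, 2 and 3. STING libraries 2 and 3 lay above all control libraries and STING library 1 among them (log2 difference 0.17, two-sided exact permutation p = 0.3). Without STING library 1 the log2 difference was 0.25, and without STING library 2 it was 0.11. Once base composition and gene length were adjusted for, the edgeR log2 fold changes were −0.11 for TFRC, −0.24 for FTH1 and −0.18 for FTL. The ratio itself was taken from unadjusted counts, and the part of base composition in it was not tested.

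SLC11A2, which carries ferrous iron out of the endosome (ENSG00000110911, chr12:50979401-51028566, minus strand), was at 84.0, 80.5 and 84.9 CPM in STING libraries 1, 2 and 3, against 77.2, 81.3 and 79.2 CPM in control libraries 1, 2 and 3. STING libraries 1 and 3 lay above the control libraries and STING library 2 among them. The estimate of 0.07 on the log2 scale (SE 0.048, edgeR adjusted p = 0.579) had an interval of −0.02 to 0.16. SLC39A14, the importer of iron that is not bound to transferrin (ENSG00000104635, on chromosome 8), was at 276, 244 and 270 CPM in STING libraries 1, 2 and 3, against 283, 299 and 264 CPM in control libraries 1, 2 and 3. The groups overlapped and the log2 fold change was −0.10 (SE 0.056, edgeR adjusted p = 0.47).

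Neither iron regulatory protein passed. ACO1, which is an aconitase when it holds an iron-sulfur cluster and binds the hairpin when it does not (ENSG00000122729, chr9:32384603-32450836, plus strand), was at 53.8, 59.8 and 57.3 CPM in STING libraries 1, 2 and 3, against 61.4, 62.3 and 63.8 CPM in control libraries 1, 2 and 3. The groups did not overlap, but the difference between the highest STING library and the lowest control library was only −2.46%. The log2 fold change was −0.13 (SE 0.054, edgeR adjusted p = 0.26). IREB2, which binds the same hairpin and is degraded when iron is plentiful (ENSG00000136381, chr15:78437431-78498209, plus strand), was at 112, 115 and 116 CPM in STING libraries 1, 2 and 3, against 115, 111 and 114 CPM in control libraries 1, 2 and 3. The groups overlapped, and the change was 0.01 on the log2 scale (SE 0.045, edgeR adjusted p = 0.957), with an interval of −0.08 to 0.10. For IREB2 the data therefore leave room for a change of about 0.1 on the log2 scale in either direction.

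NCOA4, the ferritin receptor of autophagy (ENSG00000266412, chr10:46005088-46030714, minus strand), was at 181, 181 and 190 CPM in STING libraries 1, 2 and 3, against 187, 197 and 185 CPM in control libraries 1, 2 and 3. The groups overlapped and the log2 fold change was −0.04 (SE 0.045, edgeR adjusted p = 0.758). Over the 9 genes 4 had groups that did not overlap, all with the STING libraries lower, against 19.9% of all tested genes in either direction and 9.73% in this direction. The same 4 genes (FTH1, FTL, ACO1 and STEAP3) had an unadjusted edgeR p under 0.05, against 14.4% of all tested genes in either direction and 7.20% lower. DESeq2 called 3 of the 9 lower (FTH1, FTL and STEAP3), against 8.90% of its 11589 genes in either direction and 5.28% lower.

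**Figure D3:**
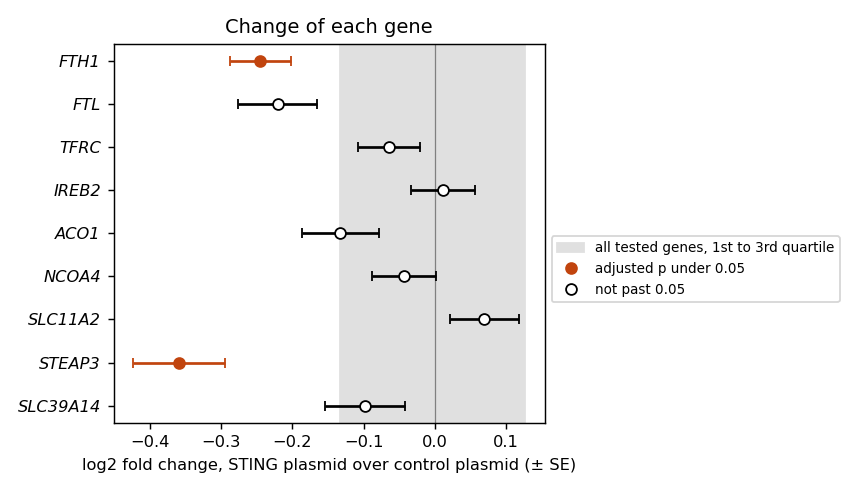
The log2 fold change of each gene, STING plasmid over control plasmid, with bars of 1 standard error; filled points passed an adjusted p of 0.05 in edgeR and the grey band spans the first to the third quartile of all tested genes, −0.13 to 0.13. FTH1 (−0.24), FTL (−0.22) and STEAP3 (−0.36) lie outside the band to the left, and the other 6 genes lie inside it, with ACO1 (−0.13) just within its edge.

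Per length the 9 genes spanned a wide range, given here as mean deposited FPKM (SD, n = 3 each). With the STING plasmid FTL was at 3366 ± 264 FPKM, FTH1 at 1882 ± 75.6, TFRC at 177 ± 8.70, NCOA4 at 42.0 ± 1.15 and SLC39A14 at 35.4 ± 1.92 FPKM. With the control plasmid FTL was at 3868 ± 88.3 FPKM, FTH1 at 2199 ± 50.5, TFRC at 182 ± 7.67, NCOA4 at 42.7 ± 1.33 and SLC39A14 at 37.3 ± 2.33 FPKM. These 5 kept this order in both groups, and no neighbours overlapped between libraries of a group. Below them, with the STING plasmid, came IREB2 at 9.84 ± 0.290 FPKM, SLC11A2 at 7.82 ± 0.150, STEAP3 at 7.74 ± 0.552 and ACO1 at 7.03 ± 0.455 FPKM. With the control plasmid the order was STEAP3 at 9.78 ± 0.216 FPKM, IREB2 at 9.62 ± 0.286, ACO1 at 7.58 ± 0.0945 and SLC11A2 at 7.34 ± 0.123 FPKM. In the STING libraries STEAP3 overlapped both SLC11A2 and ACO1, and in the control libraries it overlapped IREB2.

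The wider iron pathway was described with 9 lists of 97 genes, of which 90 were tested, 0 rose and 5 fell in edgeR. Apart from the 9 genes above, 3 of 81 tested genes fell, 0 rose, and 15 had an unadjusted p under 0.05. Over all tested genes edgeR called 0.890% lower and 0.604% higher, and 14.4% had an unadjusted p under 0.05. The median log2 fold change of these 81 was −0.03. Among the transcripts with a known iron-responsive element EPAS1 fell, and among genes of ferroptosis, the form of cell death driven by iron and lipid peroxidation, GPX4 and LPCAT3 fell. The ferroptosis list held 13 tested genes, of which 7 had a negative estimate and 5 an unadjusted edgeR p under 0.05. The median log2 fold change of the 13 was −0.02, with estimates of up to 0.23.

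EPAS1 encodes the hypoxia-inducible factor HIF-2 alpha and carries the hairpin in its leader. It was at 94.5, 86.9 and 87.8 CPM in STING libraries 1, 2 and 3, against 111, 106 and 107 CPM in control libraries 1, 2 and 3, with no overlap. The log2 fold change was −0.27 (SE 0.049, edgeR adjusted p = 0.0139). Of the 9 tested transcripts listed for a known hairpin, 2 fell, FTH1 and EPAS1, and 0 rose, against 0.890% lower over all tested genes. Of these 9, 7 had a negative estimate, against 49.8% of all tested genes, and the median of the 9 was −0.08 on the log2 scale. FTH1, FTL, TFRC and SLC11A2 of this list belong to the main gene set as well. The counts for the list are therefore not independent of the counts given above for that set. The iron exporter SLC40A1 was low, at 0.352 ± 0.116 CPM with the STING plasmid and 0.432 ± 0.145 CPM with the control plasmid (SD, n = 3 each), and its estimate of −0.29 had a standard error of 0.46. Of the listed transcripts with the hairpin in the trailer, the estimates were −0.06 for TFRC, 0.07 for SLC11A2, 0.24 for the phosphatase CDC14A and −0.06 for the kinase CDC42BPA, and none of these 4 passed (edgeR adjusted p of 0.569, 0.579, 0.401 and 0.66). These transcripts were listed from what is known. The search above kept no match for CDC42BPA, which does not show that it lacks one. Leader and trailer transcripts were not tested against each other.

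GPX4, the enzyme that reduces lipid hydroperoxides in membranes, was at 128, 119 and 117 CPM in STING libraries 1, 2 and 3, against 137, 143 and 141 CPM in control libraries 1, 2 and 3. The groups did not overlap, and the log2 fold change was −0.21 (SE 0.048, edgeR adjusted p = 0.0424). GPX4 has a GC content of 62.5% and lost its call once GC content and length were corrected for, with a log2 fold change of −0.15 (edgeR adjusted p = 0.0755), and with scaling to total counts (−0.18, edgeR adjusted p = 0.0717). LPCAT3, which places polyunsaturated fatty acids into phospholipids, was at 14.9, 13.8 and 14.4 CPM in STING libraries 1, 2 and 3, against 22.5, 18.3 and 18.6 CPM in control libraries 1, 2 and 3. Its log2 fold change was −0.46 (SE 0.092, edgeR adjusted p = 0.0212), and control library 1 stood well above the other controls. The LPCAT3 model overlaps other genes on the opposite strand, so its value is uncertain. Without any 1 control library or STING library 2 or 3, each of EPAS1, GPX4 and LPCAT3 lost its call (edgeR adjusted p of 0.0526 to 0.205).

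The remaining lists held no called gene. Of the 16 genes of heme synthesis, transport and breakdown 0 passed and 3 had an unadjusted edgeR p under 0.05, with a median log2 fold change of −0.03. UROS, an enzyme of heme synthesis, had a log2 fold change of −0.23 (edgeR adjusted p = 0.0764) and the heme oxygenase HMOX2 one of 0.16 (0.305). Of the 25 genes of mitochondrial iron and iron-sulfur clusters 0 passed and 3 had an unadjusted edgeR p under 0.05, with a median of 0.00. The ferredoxin FDX1 and the chaperone HSPA9 had log2 fold changes of 0.22 and 0.12 (edgeR adjusted p of 0.147 and 0.211), each without overlap between the groups.

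The counts below stand against 14.4% of all tested genes with an unadjusted edgeR p under 0.05. Of the 3 tested iron export genes 0 passed and 1 had an unadjusted edgeR p under 0.05. This was CP, the ferroxidase ceruloplasmin, at 0.247, 0.646 and 1.38 CPM in STING libraries 1, 2 and 3, against 3.14, 3.10 and 2.28 CPM in control libraries 1, 2 and 3. All 3 STING libraries lay below the control libraries but differed widely among themselves, and the log2 fold change of −1.90 had a standard error of 0.56 (edgeR adjusted p = 0.193). CP passed in 3 of 18 alternatives. These were without STING library 3 (−2.66, edgeR adjusted p = 0.00578), without STING library 1 (−1.49, edgeR adjusted p = 0.0369) and limma-voom (limma adjusted p = 0.0404). HEPH, another ferroxidase, had a log2 fold change of −0.20 (edgeR adjusted p = 0.709). Of the 6 tested genes of hepcidin control 0 passed and 1 had an unadjusted edgeR p under 0.05, with a median of −0.08. It was HFE, which binds the transferrin receptor, with a log2 fold change of −0.23 (edgeR adjusted p = 0.106), while the protease TMPRSS6 had only 6 to 21 counts per library (−0.78, SE 0.77). Of the 6 genes of the iron regulatory proteins and their turnover 0 passed and 1, ACO1, had an unadjusted edgeR p under 0.05. Their median was 0.01, and SKP1 and CUL1, subunits of the ubiquitin ligase that acts on IREB2, had log2 fold changes of 0.05 and −0.05. In the storage list HERC2 and PCBP2 had −0.09 and −0.07 (edgeR adjusted p of 0.34 and 0.522), and in the uptake list LCN2 and TFR2 had −0.32 and −0.66 (0.564 and 0.578).

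**Figure D4:**
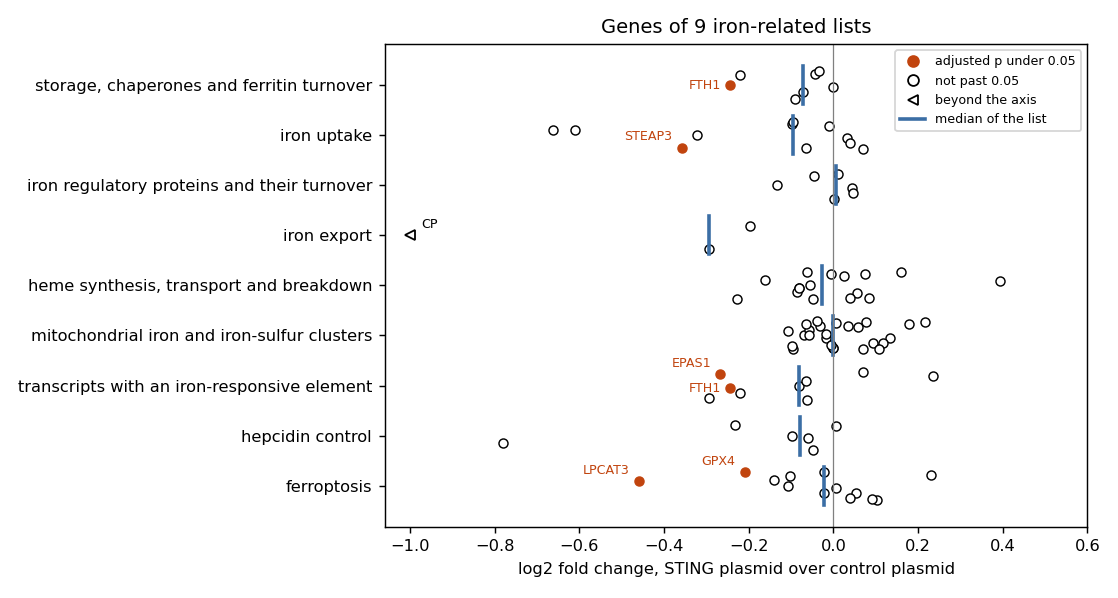
Each point is a tested gene, placed by its log2 fold change, STING plasmid over control plasmid, and grouped by list; filled orange points passed an adjusted p of 0.05 in edgeR and are named, the blue line is the median of the list, and CP (−1.90) lies beyond the axis. The called genes are FTH1, STEAP3, EPAS1, GPX4 and LPCAT3, all on the lower side.

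The genes whose pattern over the 6 libraries was most like that of FTH1 were ACTB, EPAS1 and KIAA0930. Likeness was the root-mean-square distance between log2 CPM values centred on the mean of each gene, over the 10301 genes of at least 10 CPM. The distances were 0.0103, 0.0175 and 0.0177 on the log2 scale. ACTB, cytoplasmic beta-actin, was at 3565, 3233 and 3298 CPM in STING libraries 1, 2 and 3, against 4037, 3977 and 4032 CPM in control libraries 1, 2 and 3. The log2 fold change was −0.25 for ACTB, which passed (edgeR adjusted p = 0.0085), and −0.22 for KIAA0930, which did not (edgeR adjusted p = 0.0524). These genes were picked for their likeness to FTH1, so changes of similar size follow from the choice. In the order of likeness FTL stood at place 152 (distance 0.0452) and STEAP3 at place 648 (0.0719), and these distances rest on the same 6 libraries as the comparisons above.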

How the data were processed

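Total RNA of 6 U251 libraries was extracted with Trizol and prepared with the Illumina TruSeq RNA kit, per the labels' protocols. Bowtie 0.12.2 is named in the submitters' processing notes. Counting program, annotation, build and strand: not given in the sources used here. The deposited tables, per the file headers, hold the authors' read counts and FPKM per Ensembl gene, 1 library per table. GENCODE v29 (GRCh38) holds 40903 of the 42307 gene identifiers, with a matching start or end (to 1 base) for 89.7% of those, and coordinates are read on that build.

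The test on counts was that of edgeR 4.0.16 under R 4.3.3 (filterByExpr, TMM, robust quasi-likelihood fit, two-sided, Benjamini-Hochberg adjustment over all 21679 tested genes, threshold 0.05), with no covariates. The standard error of an estimate was taken as its size over the square root of F. Sums and ratios were tested by exact permutation of the libraries, two-sided. Each gene was taken by its symbol. Alternatives were other scalings and filters, DESeq2 1.42.0, limma 3.58.1 with voom or on log2(FPKM + 1), a correction for GC content and length (splines per library), the replicate number as a block, and leaving out each library. Summing FTH1 with BEST1 was added after the data were seen. The fit was also run on simulated counts, whose outcome is not given here and is not used as support for any call. The genes, lists and tests were chosen with earlier results of these data known. Named genes were the 9 genes, STING1, list genes past the threshold, in each list the 2 other genes of lowest unadjusted p, and the 3 genes most like FTH1. A gene of the lists is not reported here by name. No replicate pair agreed within sampling noise (chi-square per gene 11.7 to 23.0).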

Additional observations from a re-analysis of the deposited data

How the results depend on the processing

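Every alternative run kept the direction of FTH1, FTL, STEAP3, TFRC, ACO1, NCOA4, SLC11A2 and SLC39A14. IREB2 turned negative with the GC content and length correction (−0.0305), with it and the replicate block (−0.0307), and without control library 2 or STING library 3 (range with 1 library left out −0.0052 to 0.027). FTH1 passed in 11 and STEAP3 in 11 of 18 alternatives, and FTL in 5. Of the 9 genes 2 were called: the number was 1 with the replicate block, 1 with the correction and the block, 1 with FTH1 and BEST1 summed, 0 on log2(FPKM + 1), and 0 to 3 with 1 library left out. Of the other iron genes 3 were called, against 5 with at least 10 counts in every library, 6 with DESeq2, 0 with the correction and the block, 0 on log2(FPKM + 1) and 0 to 6 with 1 library left out. Over all genes 324 were called (131 higher, 193 lower), against 616 with at least 10 counts in every library, 120 with the replicate block, 66 with the correction and the block, 1032 with DESeq2, 14 on log2(FPKM + 1) and 60 to 741 with 1 library left out. Scaling to total counts gave 253 higher and 142 lower. The log2 ratio of FTH1 to FTL was 0.0042 with BEST1 added and −0.058 to 0.0019 with 1 library left out. The replicate numbers are not said to mark shared cultures, and same-numbered libraries deviated together only weakly (correlations of 0.055, 0.023 and 0.017), so the block gives a value only. STING library 3 correlated best with control library 2. With same-numbered libraries as the block FTH1 had an edgeR adjusted p of 0.0605 and STEAP3 one of 0.0428. The cause of these changes was not tested.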
